A study of Mus musculus with 9 samples.

Results

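The club cell secretory genes are 10 genes known for their expression in the secretory, or club, cells of the airway lining: Scgb1a1, Scgb3a1, Scgb3a2, Cyp2f2, Aldh1a1, Cbr2, Bpifa1, Bpifb1, Reg3g and Gsto1. Every non-control probe whose RefSeq accession belongs to one of them was taken, which gave 12 of 56601 probes tested and 10 of 22909 genes named. Cbr2 and Gsto1 each had 2 probes, and a gene is represented by its probe with the higher mean signal unless a second probe is mentioned. Obliterative bronchiolitis (OB) is a scarring closure of small airways after lung transplantation. The left lung of a C57BL/10 donor was placed in a C57BL/6 recipient, a pair that differs in minor histocompatibility antigens, and grafts were sorted by histology into those with OB (n = 3) and those without (non-OB, n = 3). Sham mice (n = 3) had a thoracotomy and no graft. All lungs came from male mice and were harvested on day 21. The labels give sham the same strain pair as the grafts, whereas the study describes sham mice of both strains and marks sham 1 as C57BL/10 and sham 2 and sham 3 as C57BL/6.

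One piece of each lung went to histology and another to RNA, so the share of airway in the RNA piece is unknown. In a piece of lung with all its cell types, fewer club cells and less RNA per club cell cannot be told apart. Levels below are log2 signals of single-dye arrays, 1 per lung, each scaled to a trimmed mean of 2500. On each of the 9 arrays all 12 member probes were well above background, and no spot was saturated. Slide 1 carried OB 1 and non-OB 1 beside sham 1 and sham 2, while the remaining grafts were on slide 2 (OB 2, non-OB 3) and slide 3 (OB 3, non-OB 2), and sham 3 was alone on slide 4. Grafts and sham lungs can thus be compared within slide 1 only. The p-values measure the spread between these separate lungs, and the number of arrays limits the precision of every value.

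Club cells are secretory cells of the conducting airways and are abundant in mouse bronchioles. They release secretoglobins onto the airway surface, metabolise inhaled chemicals with cytochrome P450 and other enzymes, and can renew the airway lining after injury. The secretoglobins here are Scgb1a1, Scgb3a1 and Scgb3a2, the enzymes are Cyp2f2, Aldh1a1, Cbr2 and Gsto1, and the defence proteins are Bpifa1, Bpifb1 and Reg3g.

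RefSeq promoters (build GRCm38.p6) were matched for 8 of the 10 genes. The 250 bases before the start of 4 genes are printed because these genes showed the 2 patterns described below, a difference between grafts and sham (Cyp2f2) and a spread between single lungs of a group (Scgb3a1, Bpifa1, Reg3g). They lie at chr7:27119705-27119954 (+ strand) for Cyp2f2, chr11:49663345-49663594 (+ strand) for Scgb3a1, chr2:154142630-154142879 (+ strand) for Bpifa1 and chr6:78468875-78469124 (- strand) for Reg3g. Each runs 5′ to 3′ along the gene, with capitals for the motif matches named after it.
Cyp2f2: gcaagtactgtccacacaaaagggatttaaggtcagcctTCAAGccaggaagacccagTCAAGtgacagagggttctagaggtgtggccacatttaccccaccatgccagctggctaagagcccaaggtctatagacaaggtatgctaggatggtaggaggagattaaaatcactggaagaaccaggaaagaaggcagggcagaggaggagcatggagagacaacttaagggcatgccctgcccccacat
Scgb3a1: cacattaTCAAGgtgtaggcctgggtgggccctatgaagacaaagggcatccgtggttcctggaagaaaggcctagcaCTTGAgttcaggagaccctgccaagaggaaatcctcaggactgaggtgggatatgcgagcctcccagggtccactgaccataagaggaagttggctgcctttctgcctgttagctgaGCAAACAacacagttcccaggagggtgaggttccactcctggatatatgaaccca
Bpifa1: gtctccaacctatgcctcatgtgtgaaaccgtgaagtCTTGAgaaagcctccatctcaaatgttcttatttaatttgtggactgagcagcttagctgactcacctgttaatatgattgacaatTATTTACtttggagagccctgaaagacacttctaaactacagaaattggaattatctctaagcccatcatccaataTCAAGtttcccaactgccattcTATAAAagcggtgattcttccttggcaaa
Reg3g: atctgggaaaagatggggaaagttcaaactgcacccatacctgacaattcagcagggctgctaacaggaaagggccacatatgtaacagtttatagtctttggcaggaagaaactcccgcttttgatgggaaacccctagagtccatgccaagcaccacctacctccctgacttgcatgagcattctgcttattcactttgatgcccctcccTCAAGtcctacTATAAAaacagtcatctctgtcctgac
TCAAG, the core letters of NKX2-1 sites, was sought on both strands and stood in all 4 sequences, as it did in 35.9% of the 32851 promoters of this length. Of the forkhead letters, also sought on both strands, TATTTAC began 127 bases before the Bpifa1 start (2.73% of promoters), and the variant TGTTTGC stood 55 bases before the Scgb3a1 start on the opposite strand (4.30% of promoters). The third variant, TGTTTAC, is in 3.17% of promoters and in none of the 4. The C/EBP letters TTGCNNAA, in 9.56% of promoters on either strand, are likewise in none of them. TATAAA, sought on the sense strand alone, stood 29 bases before the Bpifa1 start and 27 before that of Reg3g, and 7.59% of promoters had it. These are matches of letters, and no binding was measured.

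Cyp2f2, the cytochrome P450 of club cells that activates naphthalene, was 6.52-fold lower in OB grafts than in sham lungs. Its signal read 15.73, 13.36 and 15.11 in the OB grafts, 15.28, 16.50 and 15.09 in the non-OB grafts and 17.40, 17.43 and 17.48 in sham. Every graft was below every sham lung, and the sham lungs were close together. In limma the OB difference was -2.70 (SE 0.61, adjusted p 0.0400) and that of all 6 allografts -2.26 (SE 0.56, adjusted p 0.0390), both past the threshold, while the non-OB difference of -1.81 (SE 0.61, adjusted p 0.187) was not. The OB call was lost without OB 2, OB 3, non-OB 1, non-OB 3 or any 1 of the sham lungs, with adjusted p up to 0.127. Within slide 1, OB 1 differed from the mean of both sham arrays by -1.68 and non-OB 1 by -2.13, and with slide as a block the OB difference was -2.35 (adjusted p 0.140).

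A gene passed when its adjusted p was under 0.05 and its change at least 2-fold. Cyp2f2 was the 1 of 10 member genes lower in OB by that rule, against 2.43% of all probes, and the 1 of 10 lower in all allografts, against 2.54%. In non-OB grafts 0 of 10 passed in limma, against 0.71% of all probes, with 5 at an unadjusted p under 0.05, a level that 17.1% of all probes reached. In OB 4 of 10 reached it, against 19.8% of all probes. No member gene passed as higher, where 1539 of 56601 probes did in OB and 1027 in non-OB. With dim probes left out, 1799 of 35039 probes were lower in OB by the same rule and 708 in non-OB. The member counts were then 2 and 0. The median difference of the 10 genes from sham was -1.37 in OB and -1.60 in non-OB, beside 0.08 and 0.13 over all probes. Among probes that exceeded background everywhere, as every member probe did, the medians were -0.11 in OB and -0.06 in non-OB. Both comparisons use the same sham lungs.

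**Figure D1:**
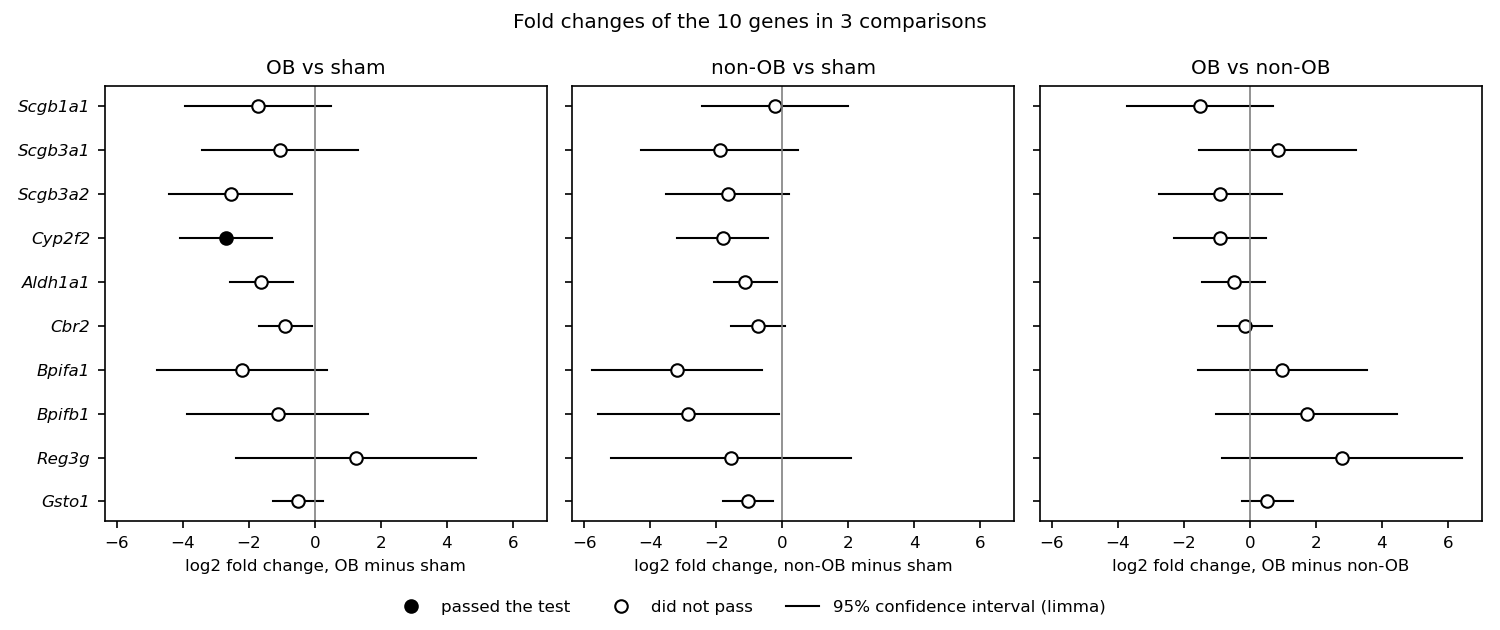
Log2 differences of the 10 genes for OB minus sham, non-OB minus sham and OB minus non-OB, with 95% confidence intervals from limma as lines and filled points for genes that passed. Cyp2f2 in OB against sham, at -2.70, is the filled point, and the Reg3g intervals are the widest.

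Aldh1a1, which oxidises retinaldehyde to retinoic acid, read 15.46, 14.29 and 15.06 in OB, 14.69, 16.12 and 15.48 in non-OB and 16.84, 16.41 and 16.43 in sham. Every graft was again below every sham lung, with non-OB 2 nearest to them. The difference from sham was -1.62 (SE 0.42, adjusted p 0.0634) in OB, -1.13 (SE 0.42, adjusted p 0.230) in non-OB and -1.37 (SE 0.37, adjusted p 0.0525) in all allografts, so none passed. Within slide 1 it was -1.16 for OB 1 and -1.93 for non-OB 1.

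Cbr2, a carbonyl reductase of mouse lung, read 18.17, 17.08 and 17.94 in OB, 17.35, 18.43 and 17.85 in non-OB and 18.59, 18.57 and 18.70 in sham. Grafts and sham did not overlap, although non-OB 2 came close to sham. The differences of -0.89 (SE 0.35, adjusted p 0.207) in OB and -0.74 (SE 0.35, adjusted p 0.331) in non-OB did not pass, and the second probe gave -1.54 (SE 0.54, adjusted p 0.163) and -1.49 (SE 0.54, adjusted p 0.225). Within slide 1 the first probe gave -0.41 for OB 1 and -1.23 for non-OB 1.

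Gsto1, an omega-class glutathione transferase, read 13.84, 13.44 and 13.57 in OB, 12.76, 13.78 and 12.71 in non-OB and 13.73, 14.17 and 14.47 in sham. OB 1 and non-OB 2 reached the range of the sham lungs, so the groups overlapped on this probe. The differences were -0.51 (SE 0.33, adjusted p 0.399) in OB and -1.04 (SE 0.33, adjusted p 0.170) in non-OB, and the second probe, on which every non-OB graft lay narrowly below every sham lung, gave -0.60 and -1.10. Without non-OB 2 the non-OB difference was -1.39 and passed.

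Among the secretoglobins, Scgb3a2, a small secreted protein of the bronchioles, read 16.73, 13.50 and 15.69 in OB, 16.42, 16.99 and 15.19 in non-OB and 17.24, 18.06 and 18.28 in sham. Every graft was below every sham lung, with OB 2 lowest. The differences of -2.55 (SE 0.81, adjusted p 0.121) in OB, -1.66 (SE 0.81, adjusted p 0.346) in non-OB and -2.11 (SE 0.71, adjusted p 0.110) in all allografts did not pass. Within slide 1, the difference was -0.92 for OB 1 and -1.23 for non-OB 1.

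Scgb1a1, the club cell secretory protein, read 18.48, 14.20 and 17.91 in OB, 18.06, 18.49 and 18.58 in non-OB and 18.65, 18.47 and 18.66 in sham. OB 2 differed from the sham mean by -4.39, whereas OB 3, the next farthest graft, differed by -0.69. The difference of -1.73 (SE 0.96, adjusted p 0.372) in OB did not pass and was -0.40 without OB 2. In non-OB it was -0.22 (SE 0.96, adjusted p 0.915), with a 95% confidence interval of -2.43 to 1.99.

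Scgb3a1, a secretoglobin of the larger airways, read 15.45, 12.62 and 13.72 in OB, 13.11, 13.17 and 12.97 in non-OB and 12.59, 16.01 and 16.36 in sham. Sham 1 was the lowest of the 9 lungs and the other two sham lungs were the highest, while OB 1 led the grafts. The differences of -1.06 (SE 1.03, adjusted p 0.581) in OB and -1.90 (SE 1.03, adjusted p 0.368) in non-OB did not pass. Against sham 1 alone the OB difference was 1.34, and without sham 1 it was -2.25.

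The defence proteins were also low in sham 1. Bpifa1, an airway surface protein also called SPLUNC1, read 12.48, 10.57 and 9.01 in OB, 9.85, 9.94 and 9.32 in non-OB and 10.50, 13.91 and 14.26 in sham. The non-OB grafts lay below all sham lungs, and OB 1 and OB 2 lay above sham 1. The differences of -2.20 (SE 1.12, adjusted p 0.332) in OB and -3.19 (SE 1.12, adjusted p 0.206) in non-OB did not pass.

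Bpifb1, its longer relative LPLUNC1, read 12.99, 10.01 and 10.49 in OB, 9.72, 10.64 and 7.96 in non-OB and 9.97, 13.24 and 13.66 in sham. OB 1 was again the highest graft and sham 1 the lowest sham lung. The differences were -1.13 (SE 1.19, adjusted p 0.610) in OB and -2.85 (SE 1.19, adjusted p 0.275) in non-OB, and against sham 1 alone the OB value was 1.19.

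Reg3g, a secreted lectin that kills Gram-positive bacteria, read 12.73, 12.35 and 11.09 in OB, 9.65, 11.29 and 6.86 in non-OB and 7.30, 12.56 and 12.59 in sham. It was the 1 member gene with a higher mean in OB than in sham, and OB 1 and OB 2 lay near sham 2 and sham 3. The differences of 1.24 (SE 1.58, adjusted p 0.677) in OB and -1.55 (SE 1.58, adjusted p 0.607) in non-OB did not pass, and the OB value turned to -0.52 without sham 1.

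**Figure D2:**
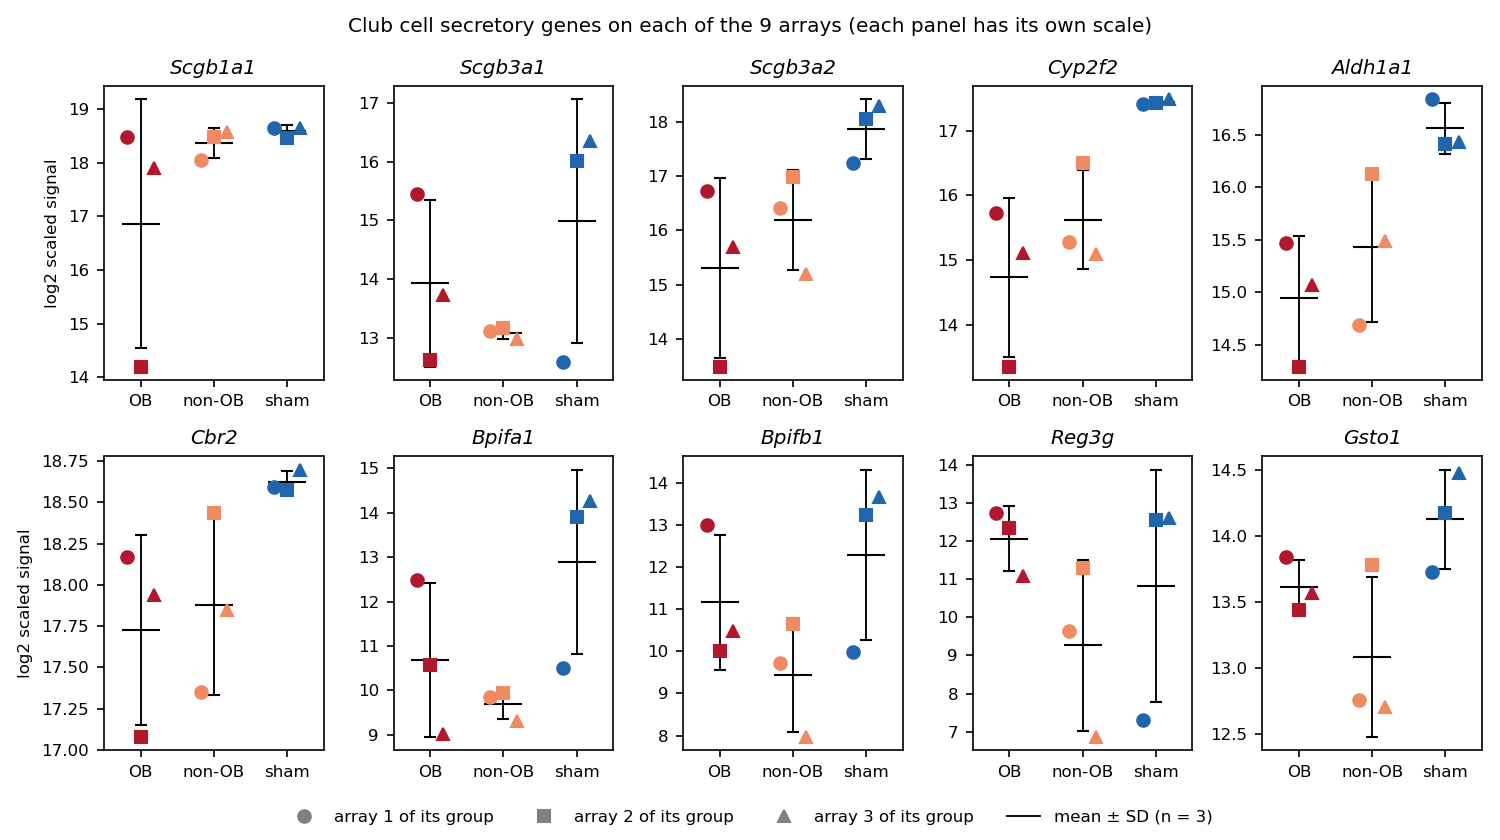
Log2 scaled signal of the 10 genes on each array, by group, with a marker shape per replicate number and black lines for the group mean ± SD (n = 3). Cyp2f2, Aldh1a1, Cbr2 and Scgb3a2 are below sham in all 6 grafts, Scgb1a1 is low on OB 2, and Scgb3a1, Bpifa1, Bpifb1 and Reg3g are low on sham 1.

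Every OB graft lay below every sham lung in 4 of the 10 genes, against 16.2% of all probes. For non-OB the count was 5 of 10 against 12.6%, and for all allografts 4 of 10 against 10.4%. The 4 shared genes were Scgb3a2, Cyp2f2, Aldh1a1 and Cbr2, and Bpifa1 was added in non-OB. Leaving out sham 1, a choice made after its values were seen, gave counts of 8, 9 and 8, where 20%, 16.3% and 13.7% of all probes did the same. Sham 1 and sham 2 shared a slide, and strain cannot be told apart from the single mouse.

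The range over the OB grafts reached 2 on the log2 scale in 6 of 10 genes, against 6.3% of the 30208 probes that exceeded background everywhere. It did so in 2 of 10 over the non-OB grafts (2.38%) and in 4 of 10 over the sham lungs (0.718%). Within OB the range ran from 0.40 for Gsto1 to 4.28 for Scgb1a1. OB 1 was the highest OB graft in all 10 genes, and OB 2 was the lowest in 8, the exceptions being Bpifa1 and Reg3g. Non-OB 2 was the highest non-OB graft in 9 of 10. The shares of all probes with these orders are not given here, so the orders may not be particular to the member genes.

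No member gene separated OB from non-OB. The groups overlapped in all 10 genes, although 3.95% of all probes did not overlap. With limma 0 of 10 passed, against 0% of all probes, and 0 of 10 had an unadjusted p under 0.05, against 1.95%. The difference of OB minus non-OB ran from -1.51 for Scgb1a1 (95% confidence interval -3.72 to 0.70) to 2.79 for Reg3g (-0.84 to 6.43), and was -0.89 for Cyp2f2 (-2.28 to 0.50). For Reg3g the difference within a slide was 3.08, 5.49 and -0.20 on slides 1, 2 and 3.

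Of 30 other genes of club cells and airway detoxification, 10 fell and 0 rose in OB, with a median difference of -1.52, and 4 fell and 0 rose in non-OB, with a median of -1.06. Pon1, an esterase, read 8.84, 6.61 and 9.37 in OB, 8.66, 9.98 and 9.62 in non-OB and 11.90, 12.08 and 12.04 in sham. All its graft values were below sham, and the OB difference was -3.73 (SE 0.67, adjusted p 0.0185). The brightest genes of the list did not pass in OB: haptoglobin (Hp) differed by -1.54, Selenbp1 by -0.94, the P450 Cyp2b10 by -1.23 and the epoxide hydrolase Ephx1 by -0.71. Aldh1a7, a close copy of Aldh1a1 whose probe could also bind its transcript, fell in both, with differences of -1.86 in OB and -1.55 in non-OB. Cyp1b1 was the 1 gene of the 30 with a higher mean than sham in both groups, by 0.76 and 0.84, and did not pass. Beside the counts of this list and of those that follow, 2.43% of all probes were called lower in OB and 0.71% in non-OB. The calls of all these lists depend on how slide is treated. With slide as a fixed block, 0 of all probes were called lower and 4 higher in OB (7052 lower at an unadjusted p under 0.05) and 0 and 0 in non-OB (5057 lower). With slide as a random block 2161 were called lower in OB and 881 in non-OB.

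Of 22 other secretoglobin, BPI fold and Reg genes, 11 were above background on no array. Scgb1c1, the 1 that passed, differed by -2.42 (SE 0.32, adjusted p 0.00606) in OB and -2.12 (SE 0.32, adjusted p 0.0164) in non-OB. It read 9.26, 9.32 and 9.74 in OB, 9.08, 10.34 and 9.80 in non-OB and 11.73, 11.89 and 11.96 in sham, with no overlap between grafts and sham. The list's median was 0.29 in OB.

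Of 17 airway transcription factors, 1 fell in OB, with a median of -0.26. This was the Notch effector Hes1, which differed by -1.92 (SE 0.28, adjusted p 0.00829) in OB and -1.35 (SE 0.28, adjusted p 0.0464) in non-OB. Foxa2, a forkhead factor, differed by -0.92 (SE 0.30, adjusted p 0.127) in OB and did not pass. Nkx2-1, named here for its motif and outside the rule for named genes, differed by -0.26 (SE 0.26, adjusted p 0.576).

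Of 15 genes of the retinoid pathway around Aldh1a1, 1 fell in OB, with a median of -0.55, and 0 passed in non-OB. It was the retinol carrier Rbp4, at -1.72 (SE 0.32, adjusted p 0.0225). Dhrs3, Rara and Rarg, among its brightest genes, differed by -0.68 to -0.15 and did not pass. Of 26 glutathione enzymes around Gsto1, 9 fell and 1 rose in OB, with a median of -0.71, and 5 fell in non-OB. The transferase Gsta2 differed by -3.89 (SE 0.74, adjusted p 0.0226) in OB. The gene that rose was haem oxygenase, Hmox1, at 1.18 (SE 0.19, adjusted p 0.0130), named after its values were seen.

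Of 17 ciliated cell genes, 5 fell in OB and 1 in non-OB, with medians of -1.36 and -1.04. Mcidas, a regulator of ciliated cell fate, had a higher mean than sham in both, by 0.64 and 0.73, and did not pass. Its probe was bright, with a mean of 13.84 against 10.93 for Foxj1. Its values over the 9 arrays lay close to those of the leukocyte gene Itgam (mean 13.84). Whether this probe measures Mcidas alone was not tested. The dynein gene Dnah9 fell in both graft groups, with differences of -1.69 and -1.40. The median over the list of each gene's deviation from its own mean over 9 arrays was -0.21, -1.07 and -0.36 in OB, -0.86, 0.19 and -0.30 in non-OB and 0.60, 0.92 and 0.95 in sham. For the 30 other club cell genes it was -0.21, -1.18 and -0.38, then -0.83, 0.27 and -0.40, then 0.89, 0.86 and 0.90. By this measure both lists were lower in every graft than in every sham lung, with OB 2 lowest and non-OB 2 highest among the grafts. General epithelial genes had 0 of 12 called in OB in limma and a median of -0.54, and their summed log2 level was 15.97 to 16.21 in OB, 16.20 to 16.51 in non-OB and 16.63 to 16.75 in sham. Alveolar type 2 genes had 0 of 13 called in limma in either group, and their summed level was 19.84 to 20.08 in OB, 19.72 to 20.26 in non-OB and 19.78 to 19.87 in sham. The part of the amount of airway in these values was not tested.

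On OB 2, the graft lowest in Scgb1a1, 6 of 10 basal cell genes had their highest value of the 9 arrays, against 0 to 2 on each other array. The share of all probes that were highest on OB 2 is not given here. The list's median deviation was 1.80 there and -0.40 to 0.19 on the other 8 arrays, and 0 of 10 passed in OB. Krt5, a basal and squamous keratin named after its values were seen, read 11.41 on OB 2 and 4.17 to 6.58 elsewhere. Krt17, named likewise, read 11.53 on OB 2 and 6.62 to 7.45 elsewhere. Trp63, the basal cell transcription factor, read 13.26 on OB 2 and 12.62 to 13.38 elsewhere. The Trp63 probe was well above background on all 9 arrays, whereas that of Krt5 was so on 0 of 3 non-OB arrays. The adhesion molecule Icam1 read 10.69 on OB 2, below all sham lungs (10.88 to 11.25). Snai2 read 10.31 on OB 2, above the other grafts (9.11 to 9.60) and within the sham range (10.07 to 10.43). Dapl1 was also not highest there, so none of the 4 brightest genes of the list had its highest value on OB 2. The part of basal cells in the low Scgb1a1 of OB 2 was not tested.

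On OB 1, the graft highest in Scgb3a1, Bpifa1, Bpifb1 and Reg3g, 7 of 15 goblet cell and mucus genes had their highest value of the 9 arrays. The count was 4 on OB 2 and 0 to 1 on each other array. The share of all probes that were highest on OB 1 is not given here. The list's median deviation was 1.78, 0.31 and 0.39 in OB, -0.63, 0.23 and -0.22 in non-OB and -0.99, -0.03 and 0.02 in sham. The mucin Muc5b read 14.08, 10.14 and 12.09 in OB, 11.41, 11.82 and 10.65 in non-OB and 11.82, 13.53 and 13.84 in sham, with OB 1 highest and sham 1 the lowest sham lung. The brightest gene, the antibody transporter Pigr, was instead lowest on OB 1, at 15.26 against 15.46 to 16.81 elsewhere, and Muc1 and Muc4 were not highest there. The summed level of the list was 16.67, 17.02 and 17.01 in OB, 16.28, 16.53 and 16.99 in non-OB and 16.13, 16.11 and 16.45 in sham. It is the log2 of the summed linear signals, in which Pigr, the brightest gene, weighs most. By that measure OB 1 was the lowest OB graft, as it was for Pigr. Of the 15 genes, 2 rose in OB: the trefoil peptide Tff1, at 2.61 (SE 0.33, adjusted p 0.00552) with 2 of 3 sham arrays above background, and the lectin Itln1, above background on 1 of 3 sham arrays, at 5.44 (SE 0.67, adjusted p 0.00495).

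Cardiac muscle genes, which in mouse lung can come from pulmonary vein walls, were also lower on sham 1 than on sham 2 and sham 3. By the list's median sham 1 was still above every graft, unlike for Scgb3a1, Bpifa1, Bpifb1 and Reg3g. The list's median deviation was 1.86, 3.86 and 3.94 in sham and -2.46 to -0.42 in the grafts, where OB 1 was highest. Of 10, 7 fell in OB and 8 in non-OB. Of 10 smooth muscle genes 8 fell in OB, led by Cnn1 at -3.14 (SE 0.46, adjusted p 0.00916), and 0 in non-OB. All 10 had lower means than sham in both groups, with medians of -1.53 and -0.98. None of them passed for OB against non-OB. Of 12 cartilage genes 0 passed in OB with limma, and 5 were above background on no array. The part of goblet and muscle tissue in the member values was not tested.

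Of 10 alveolar type 1 genes 4 fell in OB, among them Hopx at -1.82 (SE 0.23, adjusted p 0.00519), and 1 in non-OB. Of 9 neuroendocrine genes 1 fell in OB, Chgb, with 2 of 3 OB arrays above background. Of 13 leukocyte genes 7 rose in OB and 3 in non-OB, where 1539 and 1027 of all 56601 probes rose. The macrophage gene Cd68 rose by 2.29 and 1.78. A list around interleukins 17 and 22 held these cytokines, receptors for them and mucosal genes that they induce, as they do Reg3g. Of its 16 measured genes, 3 rose in OB and 4 in non-OB, and 3 were above background on no array. The acute phase gene Saa3 differed by 4.11 (SE 0.89, adjusted p 0.0356) in OB and 4.79 (SE 0.89, adjusted p 0.0344) in non-OB.

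**Figure D3:**
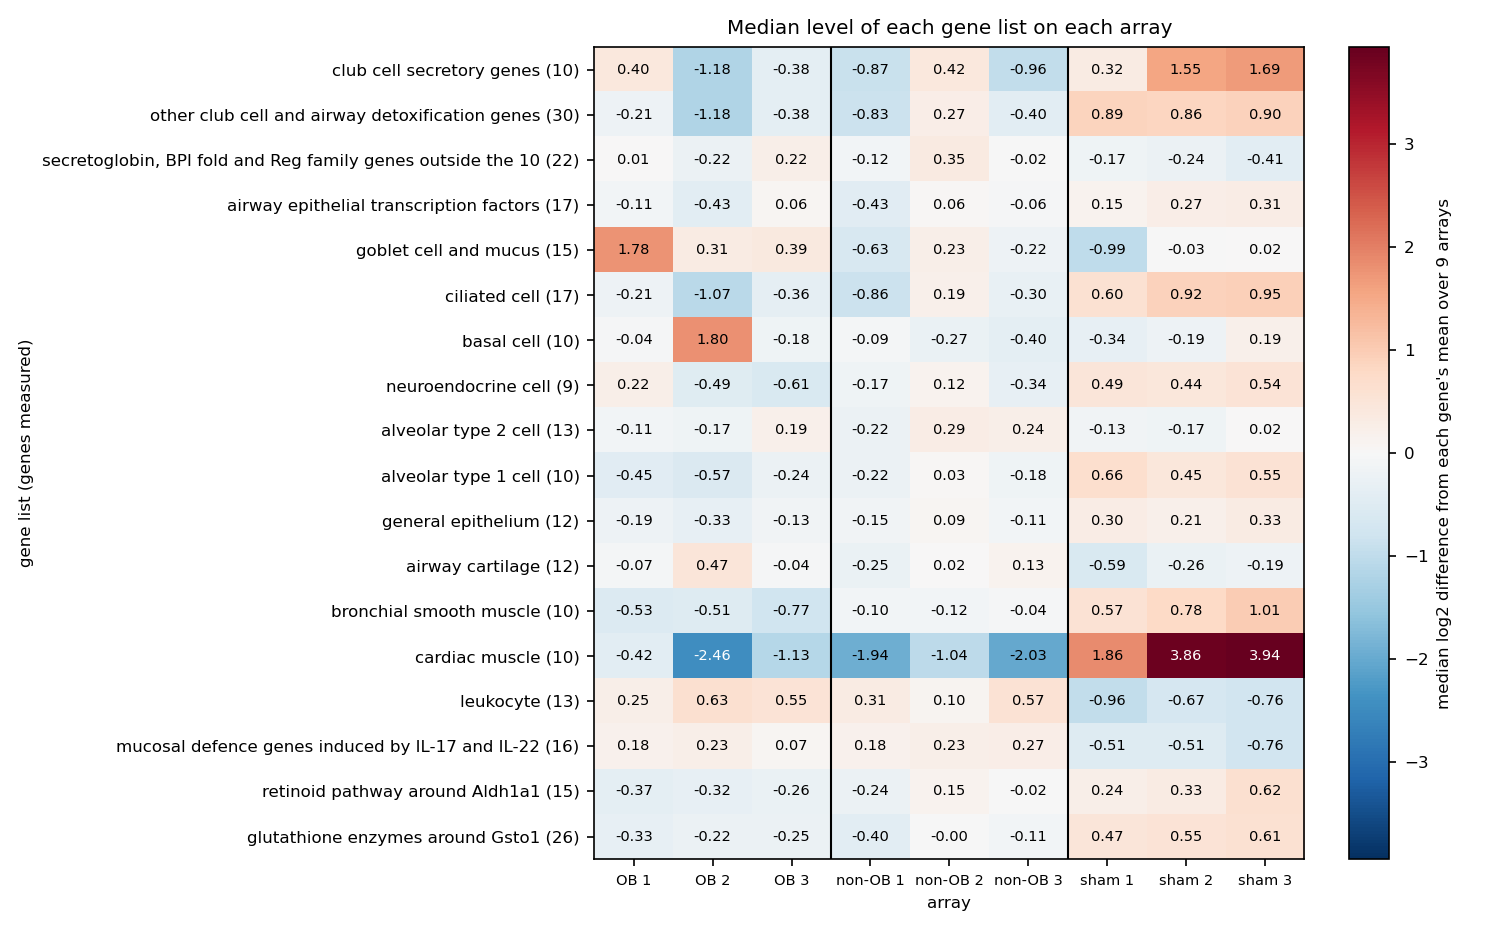
Median over the genes of each list, on each array, of the log2 deviation from the gene's mean over the 9 arrays, red for higher and blue for lower. The basal list stands out on OB 2 (1.80), the goblet list on OB 1 (1.78) and the cardiac list on sham 2 and sham 3 (3.86 and 3.94).

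Of 14736 named genes above background on all arrays, the 8 with the pattern most like Scgb1a1 over 9 arrays, by Pearson's r, were Fhad1 (0.95), Hba-a1 (0.94), Wfdc10 (0.92), Hba-a2 (0.92), Noxa1 (0.92), H2bc4 (0.92), Calca (0.91), Homer1 (0.90). In all 8 genes OB 2 was the lowest array, as in Scgb1a1. The Scgb1a1 pattern is set mostly by OB 2, so the ranking itself picks such genes and this is no separate result. Hba-a1 and Hba-a2 are near-identical genes whose probes may share transcripts. A ranking added after the values were seen had among its leading genes Fam216a (0.99), Kcnmb4 (0.99), Cyp2s1 (0.99), Akap14 (0.99), Gsta2 (0.99), Hbb-b1 (0.99), Cytl1 (0.99) for Cyp2f2 and Cox4i1 (0.96), Cox6a2 (0.96), Lmod3 (0.94), Tyw1 (0.93), Myom2 (0.93), Actn2 (0.93), Apobec2 (0.92), Stard3nl (0.92) for Bpifa1. Among the member genes, r was 0.95 between Cyp2f2 and Aldh1a1, 0.96 between Cyp2f2 and Scgb3a2, 0.90 between Bpifa1 and Bpifb1, 0.92 between Scgb3a1 and Bpifb1, and 0.19 between Scgb1a1 and Bpifa1. These arrays share groups and slides, and the values are a description.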

How the data were processed

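RNA from a piece of the left lung of 9 mice, 3 per group, was measured on single-dye Agilent arrays, 1 per lung. The deposited files hold Feature Extraction (version 12.0.3.1, per the submitters' processing notes) scanner output, whose processed intensities are already background-corrected per the file headers. The value table deposited by the authors holds linear values, not log2. They equal these intensities after scaling each array to a trimmed mean of 2500 (2% trimmed at each end, largest relative difference 5e-10). Here the intensities were scaled in the same way and then taken to log2. Control spots (3671 of 62976) and outlier spots were left out, and spots of a probe were averaged. Accessions gave 32991 of 56601 probes a RefSeq gene. Between 58.6% and 69.6% of spots per array were well above background.

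limma 3.58.1 (R 4.3.3) fitted 1 mean per group over all 9 arrays with moderated variances, and p was adjusted over all probes (Benjamini-Hochberg). A call needed an adjusted p under 0.05 and a 2-fold change, with no fold limit for OB against non-OB. On simulated data, 40.5% of 200 probes changed by 2 on the log2 scale were recovered for OB against sham. Named genes were the 10 members with all their probes, the 4 or fewer brightest genes of each list, called genes among the 2 largest changes of a list, and the 8 genes most like Scgb1a1; a few genes that this rule names are not reported here. The members and lists were chosen with earlier results of these data known. Alternatives covered scaling, background, dim probes, array weights, slide and replicate blocks, the methods' t-test, sham subsets and each array left out.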

Additional observations from a re-analysis of the deposited data

Results flagged for a closer look

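The Scgb1a1 signal of OB 2, at 14.20, stood apart from the other 5 allografts, with a gap to the nearest of them of 0.846 of the whole range over the 6 grafts. This exceeds Dixon's 95% critical value for 6 samples. All 10 member genes were looked at in this way and 1 passed that limit, and a limit of this kind is also passed by chance in some groups. The next largest gap was that of Scgb3a1 on OB 1, at 0.611, which is under the limit.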

How the results depend on the processing

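The OB against sham count of 1 member gene was 0 with 75th percentile scaling, with only the compared groups in the fit, with slide as a fixed block, with the methods' t-test after Benjamini-Hochberg, and with sham 1 alone or sham 2 and sham 3 alone as control. It was 2 with normexp and quantile, without dim probes, with trend and robust, with slide as a random block and with the methods' t-test unadjusted, and 3 with array weights. Leaving out 1 array gave 0 to 1. Without non-OB 1 the 1 gene was Aldh1a1 in place of Cyp2f2. The non-OB count of 0 was 1 with the methods' t-test unadjusted and 0 to 1 with 1 array left out. The allograft count of 1 was 0 with 75th percentile scaling, slide as a fixed block, the t-test after Benjamini-Hochberg and sham 1 alone, 2 with quantile, normexp and quantile, no dim probes, trend and robust and slide as a random block, 4 with array weights and the t-test unadjusted, and 0 to 2 with 1 array left out. OB against non-OB gave 0 throughout. The counts of genes with every graft below every sham lung, an alternative added after seeing the data, ran from 4 to 8 in OB, 5 to 9 in non-OB and 4 to 8 in all allografts with 1 array left out. Quantile normalization moved the non-OB median of all probes from 0.13 to -0.02.

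With replicate number as a block, 0 member genes passed for OB and 0 for all allografts, and the adjusted p of Cyp2f2 in OB was 0.0948. Deviations of arrays with the same number correlated from -0.45 to 0.44, and those of arrays with different numbers from -0.62 to 0.56. OB 1, non-OB 1 and sham 1 shared a slide, so these values cannot decide whether the numbers pair the lungs.

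These log2 differences changed sign, and none of them passed. With sham 1 alone as control, OB was 1.34 for Scgb3a1, 0.19 for Bpifa1 and 1.19 for Bpifb1, non-OB was 0.49 for Scgb3a1 and 1.97 for Reg3g, and all allografts were 0.91 for Scgb3a1, 0.33 for Bpifb1 and 3.37 for Reg3g. With slide as a fixed block, OB was 0.40 for Scgb3a1 and 0.61 for Bpifb1, non-OB was 0.46 for Scgb1a1, and all allografts were 1.26 for Reg3g. With slide as a random block, non-OB was 0.095 for Scgb1a1 and all allografts 0.32 for Reg3g. With sham 2 and sham 3 alone, OB was -0.52 for Reg3g. Leaving out 1 array gave -0.52 to 2.13 for Reg3g in OB, -1.91 to 0.74 for Reg3g in all allografts, and, for OB minus non-OB, -1.60 to 0.012 for Scgb3a2 and -0.41 to 0.18 for Cbr2. The causes were not tested.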
